A study of Drosophila melanogaster with 2 samples.

Results

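The genes for the Brahma chromatin remodelling complex and for 3 further trithorax group proteins were examined for binding of Jra, the fly Jun protein and a subunit of the AP-1 transcription factor. These 10 genes were osa, brm, mor, Snr1, Bap60, Bap111, Bap170, trx, kis and ash1, out of 13945 protein-coding genes on the chromosome arms. They were chosen by name, with earlier results of these data known, and a region was counted for a gene when its summit lay in the gene or within 5 kb of either end (Ensembl release 115). The values come from 1 group, 2 biological replicates, numbered 1 and 3, of Drosophila melanogaster larvae in the wandering third-instar stage, males and females together and of unstated age. All animals came from a stable transgenic line in which GFP was fused to the C terminus of Jra, and chromatin was precipitated with an anti-GFP antibody. Because whole animals were used, each signal averages over the tissues of the larva. The samples used here include no second genotype, treatment or stage, and the control libraries named in the labels were not analysed here.

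The deposited lists were read on genome build dm6. The authors' list cut by IDR (irreproducible discovery rate) held 3803 peaks on the chromosome arms. The pooled list of both replicates held 29999 regions and the lists of replicates 1 and 3 held 30000 and 29999, and these also contain weak regions given as background. Signal is the value that the authors' peak caller gave each region, and its scale differs from list to list, so replicates are compared by rank or by a ratio set against its median over all peaks. The lists hold no read counts and read depth is unknown. The values below describe the members and carry no test, because the rule for choosing regions used the same peaks and signals.

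The Brahma complex is the fly SWI/SNF remodeller, which uses ATP to move or evict nucleosomes. It exists in a BAP form, marked by the Osa subunit, and a PBAP form, marked by Bap170 and Polybromo. The trithorax group was defined in flies by genes that keep homeotic genes active, in opposition to the Polycomb group. It includes Brahma subunits, the histone methyltransferases Trx and Ash1 and the chromodomain ATPase Kismet.

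Of the 10 genes, 9 had at least 1 IDR summit in the window (41.4% of all protein-coding genes did), with 28 summits in all. Snr1 had none. Of the 10, 4 (osa, brm, trx and kis) were themselves the gene with the closest protein-coding transcription start site (TSS) to a summit, against 18.5% of all protein-coding genes. Set against genes with a summit in the window alone, this was 4 of 9 members and 42.7% of all such genes, a similar share. For mor, Bap60, Bap111, Bap170 and ash1 the closest start site belonged to a neighbour at every listed summit. The 28 summits thus divided into 13 closest to a member's own start site and 15 closest to that of another gene, 10 of these 15 within 1000 bp of it. Among the 1901 IDR peaks of higher signal, 7 of the 10 genes had a summit (27.9% of all genes), and Bap111 and Bap170 joined Snr1 in having none. The highest signals were 1056 beside ash1, 665 in osa and 266 beside mor, which ranked 2, 13 and 212 of the 3803 IDR peaks.

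**Figure D1:**
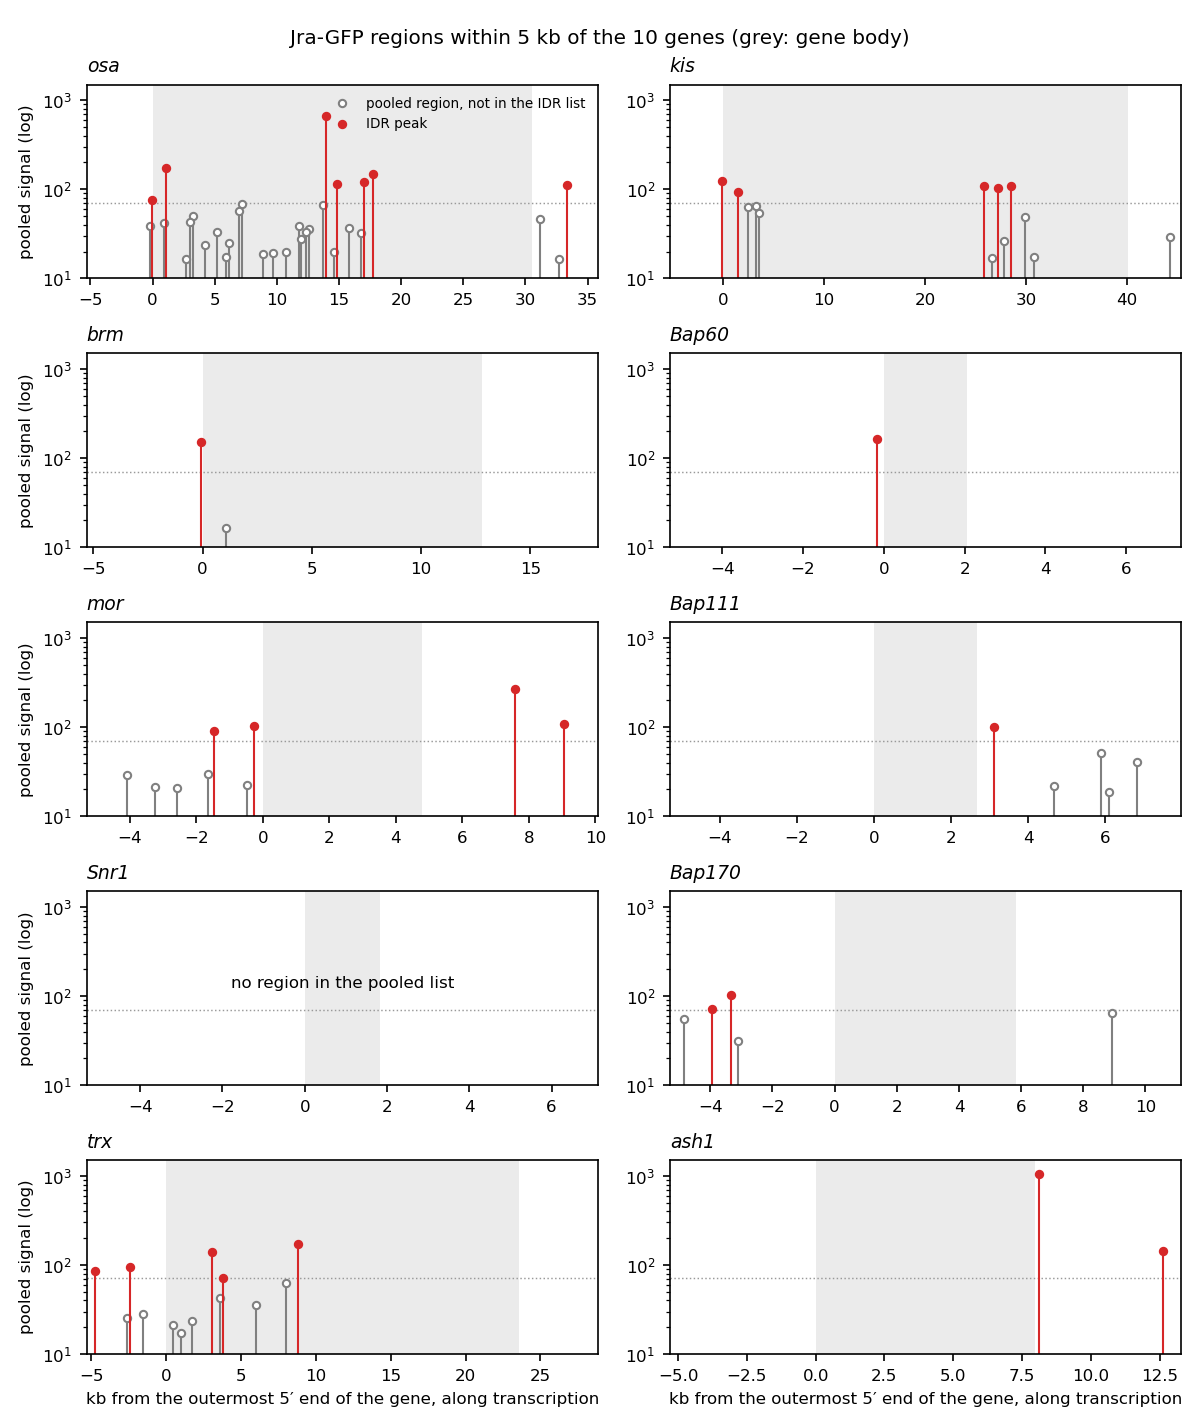
Signal of every region of the pooled list (log axis) within 5 kb of each of the 10 genes, against distance in kb from the outermost 5′ end along the direction of transcription. Red filled points are the 28 IDR peaks and open points the 53 regions below that list; grey marks the gene body and the dotted line the lowest nuclear IDR signal (70.6). In osa, trx and kis most IDR peaks lie inside the gene, whereas in the other windows with a peak they lie outside it, and Snr1 has no region.

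The summit sequences of 5 peaks are shown because they share a word that stood out when the summit sequences were read. The word is AGTCACT, which reads as AGTGACT on the other strand. It consists of the letters of the AP-1 site in another order, and it lay within 50 bp of 5 of 28 summits (17.9%, Wilson 95% interval 7.88 to 35.6, counting error only). Of all 3803 nuclear IDR summits 63 held it (1.66%), and the 101 bp windows 500 bp away held it in 0.763% (left) and 0.605% (right). This word was picked after the sequences had been seen, a rearrangement of this kind was already part of earlier results of these data, and it carries no test. The interval does not allow for that choice, so it cannot be used to set the 28 summits against all summits. Each line gives the word in capitals with 10 bases to each side, 5′ to 3′ on the plus strand of dm6 (RefSeq Release 6 sequence):
osa, intron, chr3R:17704400-17704426: tttctgatcaAGTCACTcatcaaaaga
brm, promoter, chr3L:15982939-15982965: gttcagcacaAGTCACTgtgaatattt
trx, intron, chr3R:14283848-14283874: taagccccacAGTCACTccataacttt
CG32856 promoter beside mor, chr3R:15965327-15965353: gtattttaaaAGTCACTtgctttatga
red promoter beside trx, chr3R:14289260-14289286: tcatttcagcAGTCACTtgtttttgag
The word was centred 13 bp from the summit in osa, 10 bp in brm, 18 bp in trx, 23 bp at CG32856 and 33 bp at red. Of these peaks 3, in osa, brm and trx, lie closest to the member's own start site. At brm the word lies just outside the listed region. Within 25 bp of the summit 3 member peaks held the word, against 0.868% of all nuclear IDR peaks.

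The AP-1 site itself, TGACTCA or TGAGTCA, lay within 50 bp of none of the 28 summits (0%, Wilson 95% interval 0 to 12.1), against 4.08% of all nuclear IDR summits. It was also absent within 100 bp. The 10 windows did hold exact AP-1 sites, 3 each for osa and trx, 4 for kis, 2 each for mor and Bap170 and 1 for Bap60. None of these sites lay inside an IDR peak, and 2, in the windows of osa and mor, lay inside a weaker pooled region. The windows together spanned 232127 bp and most of the 28 peaks were 440 bp wide, so peaks covered a small part of them. No share over all AP-1 sites of the genome was computed, and the absence from IDR peaks was not tested. The DNA replication-related element (DRE), TATCGATA, known from the promoters of many housekeeping genes, lay within 50 bp of 1 summit (3.57%, against 3.23% of all), that of the osa promoter. GAGAGAG, a sequence bound by GAGA factor, lay within 50 bp of 1 summit (3.57%, against 3.34% of all), 1100 bp into osa. No match says only that these letters are not in the window. All motifs were searched on both strands. Those osa peaks are shown with these motifs in capitals, 5′ to 3′ on the plus strand of dm6. The promoter stretch starts at the first base upstream of the annotated transcript:
osa promoter, DRE, chr3R:17718351-17718412: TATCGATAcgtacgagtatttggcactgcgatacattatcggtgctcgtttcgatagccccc
osa intron, GAGA, chr3R:17717200-17717300: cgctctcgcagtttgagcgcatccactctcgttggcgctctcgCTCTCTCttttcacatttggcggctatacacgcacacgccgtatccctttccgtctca

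**Figure D2:**
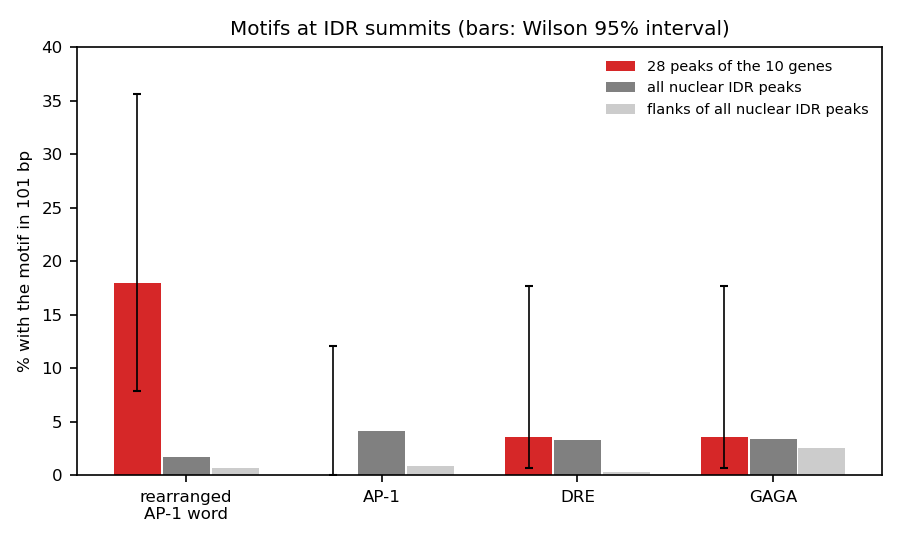
Share of 101 bp windows with each motif, in percent, for the 28 peaks of the 10 genes (red, with Wilson 95% intervals), for all 3803 nuclear IDR peaks (dark grey) and for the flanks 500 bp away from those (light grey, mean of both sides). The rearranged word stands at 17.9% in the 28 peaks and 1.66% in all peaks, and the AP-1 site at 0% and 4.08%. The rearranged word was picked after the sequences of the 28 peaks had been read, and its interval does not allow for that choice.

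Osa, an ARID-domain subunit that marks the BAP form, is encoded by the member gene with the most peaks. The gene spans 30533 bp on the minus strand (3R 17687818 to 17718350) and had 7 IDR summits in its window. Across the genome 0.323% of protein-coding genes had 7 or more, and of 1013 genes of 20 kb or longer 3.06% did. By the 3827 regions of highest signal in a single replicate, the osa window held 11 summits in replicate 1 and 8 in replicate 3. The replicate 1 regions of rank 12 and 980 overlap, so the 11 do not all cover separate stretches. The strongest summit, at 3R 17704400, had a pooled signal of 665, with 424 in the replicate 1 list (rank 12) and 254 in that of replicate 3 (rank 37). It lay in an intron, 13950 bp downstream of the osa start site. It was also inside a non-coding RNA gene nested in osa, lncRNA:CR46035, 705 bp from its start. Another 3 summits of signal 149, 121 and 114 lay within 4 kb of it. All 3 were within 1000 bp of the start site of lncRNA:CR46036 or lncRNA:CR46035, the one of signal 149 at 91 bp.

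The peaks at the 5′ end of osa were weaker than the strongest intronic one. A summit of signal 175, the second highest in osa, lay 1100 bp into the gene, with 76.4 in replicate 1 (rank 1239) and 107 in replicate 3 (rank 323). Another, of signal 76.7, lay 12 bp upstream of the annotated start, with 43.2 in replicate 1 (rank 3509) and 35.6 in replicate 3 (rank 3886). The promoter peak was thus inside the 3827 regions of highest signal in replicate 1 and just outside them in replicate 3. The remaining summit, of signal 111, lay 2779 bp past the 3′ end of osa and 58 bp from the start of CG31360. Below the IDR list, osa held 24 further pooled regions, the highest at 67.9 and 65.8. These are not all separate sites. For example, the pooled summit at 3R 17717453 lies inside the IDR peak with its summit at 17717250. In all 31 pooled regions lay in its window, 7.65 per 10 kb, against 2.24 per 10 kb over the chromosome arms. Only 26 of the 1013 genes of 20 kb or longer (2.57%) had a denser window.

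Of the core subunit genes, brm and mor had an IDR summit within 1000 bp of their own start site and Snr1 did not, against 20.4% of all protein-coding genes. None of them had a summit in the gene body, where 10.8% of all protein-coding genes had one. At brm, which encodes the ATPase, 1 IDR peak lay 93 bp upstream of a start site (3L 15982962, signal 152, rank 896). Its signal was 74.2 in replicate 1 (rank 1323) and 74.5 in replicate 3 (rank 825). It was only 128 bp wide, against the 440 bp of most peaks, and the summits of the replicates were 8 bp apart. The brm window of 22788 bp held 1 other pooled region, of signal 16.6, inside the gene.

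Moira, the scaffold subunit encoded by mor, had 4 summits in its window and none in the gene. A summit of signal 102, with 44.1 in replicate 1 (rank 3404) and 59.4 in replicate 3 (rank 1367), lay 274 bp upstream of mor and 111 bp from the start of Hel89B, a helicase gene that is its divergent neighbour. A second summit, of signal 91.4, lay in an intron of Hel89B. The remaining summits, of signal 266 and 109, lay past the 3′ end of mor, 34 bp from the start of CG32856 and 21 bp from that of CG4287. The peak of signal 266 had 137 in replicate 1 (rank 312) and 130.0 in replicate 3 (rank 193).

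Snr1 encodes the SNF5-like core subunit and was the only member with no region in the IDR and pooled lists. Among all protein-coding genes 75.2% had a pooled region in the window. In the replicate 1 list a region of signal 43.7 (rank 3450) lay within 5 kb of Snr1, 55 bp from the start of the ribosomal protein gene RpL35A and 3770 bp from that of Snr1. No region of the replicate 3 list lay there. With a window of 10 kb, Snr1 had 1 IDR summit and all 10 genes had at least 1, against 54.0% of all protein-coding genes. By the 3827 regions of highest signal in each replicate, all 10 genes had a summit in replicate 1 (43.0% of all genes) and 9, all but Snr1, in replicate 3 (41.7%).

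The accessory subunit genes Bap60, Bap111 and Bap170 had 1 or 2 IDR peaks each in the window, none of them in the gene. At Bap60 a summit of signal 164 (X 13159676, rank 764) lay 168 bp upstream of the gene and 72 bp inside the divergent gene CG12096. Its signal was 97.3 in replicate 1 (rank 739) and 66.7 in replicate 3 (rank 1066). For Bap111, which encodes an HMG-domain subunit, the single summit (X 9152428, signal 102) lay 452 bp past the 3′ end, in intergenic sequence. Its nearest protein-coding start site was that of His3.3B, a gene for the replacement histone H3.3, at 2584 bp. Its signal was 65.6 in replicate 1 (rank 1672) and 36.1 in replicate 3 (rank 3763). A replicate 1 region of signal 29.8 (rank 6250) was centred 121 bp from the Bap111 start site and 117 bp from that of the neighbour fh. No region of the pooled list was nearer to the Bap111 start site than the peak past the gene.

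The window of Bap170, the subunit that marks the PBAP form, held summits of signal 104 and 71.1, both more than 3 kb upstream. They lay 91 and 170 bp from start sites of Vha16-1, a subunit gene of the vacuolar proton pump. The peak of signal 104 had 70.7 in replicate 1 (rank 1459) and 35.5 in replicate 3 (rank 3900). The other had 28.8 in replicate 1 (rank 6581) and 51.4 in replicate 3 (rank 1810), so their order was opposite in the replicates. By the 3827 regions of highest signal in a single replicate, the window held 3 summits in replicate 1 and 1 in replicate 3, and with a window of 2 kb it held no IDR summit. At the Bap170 promoter itself both replicate lists held a region. That of replicate 1 had signal 72.4 (rank 1392), 106 bp from the start site, and was the strongest of the window in that list. That of replicate 3 had signal 32.4 (rank 4575), 80 bp from the start site. Neither the pooled nor the IDR list held a summit within 1000 bp of it.

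Among the trithorax group genes outside the complex, trx and kis had most of their IDR peaks inside the gene, and ash1 had none there. The gene trx had 5 summits, 3 of them in introns 3060, 3803 and 8803 bp downstream of its single annotated start. The farthest was the strongest, with signal 171 (3R 14278100), 71.3 in replicate 1 (rank 1433) and 109 in replicate 3 (rank 309). The one nearest the start had signal 138, with 66.7 in replicate 1 (rank 1625) and 78.0 in replicate 3 (rank 735). The one between them had signal 71.6, with 54.1 in replicate 1 (rank 2367) and 19.0 in replicate 3 (rank 10811), so it was high in replicate 1 alone. No IDR summit lay within 1000 bp of the trx start. The other 2, of signal 94.5 and 85.4, lay upstream in the neighbour red.

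The gene kis, the longest of the 10 at 40089 bp, has a start site at its outer end (2L 250823) and an internal one (2L 221962). Its 5 summits were all closest to a kis start site and had signals of 124, 110, 108, 102 and 93.1, a narrower range than in osa or trx. The strongest lay 94 bp upstream of the outer start (2L 250917), with signal 68.0 in replicate 1 (rank 1555) and 58.3 in replicate 3 (rank 1419). Another 3 lay 349, 1599 and 2985 bp upstream of the internal start, the middle one 42 bp from the start of lncRNA:CR44222. The peak 2985 bp upstream had 76.0 in replicate 1 (rank 1255) and 31.8 in replicate 3 (rank 4705). Of all protein-coding genes 1.34% had 5 or more summits, and of those 20 kb or longer 8.09% did.

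The second strongest nuclear peak of the IDR list lay beside ash1 but at the promoter of another gene. Its summit (3L 19590620, signal 1056) was 153 bp past the 3′ end of ash1 and 96 bp from the start of CG14100. The distance to the ash1 start site was 8135 bp. It ranked 2 in replicate 1 (signal 658) and 22 in replicate 3 (signal 406). A weaker summit, of signal 142, lay 110 bp from the start of CG9330, and no pooled summit lay in ash1 or upstream of it.

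**Figure D3:**
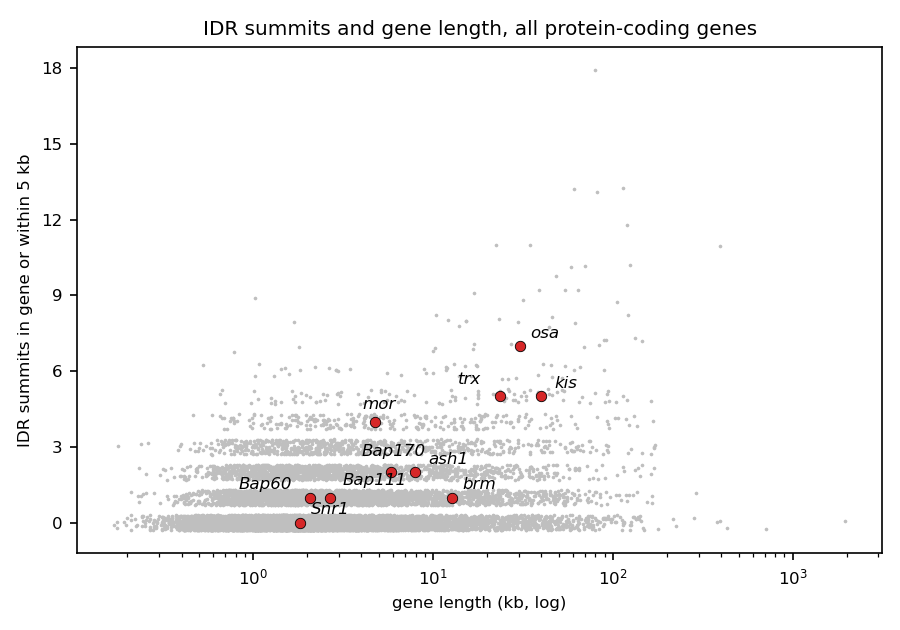
Number of IDR summits in the gene or within 5 kb against gene length in kb (log axis) for all 13945 protein-coding genes (grey, shifted slightly up or down so that points do not hide each other) and the 10 genes (red). The red points with the most summits, osa with 7 and trx and kis with 5 each, are also the longest of the 10.

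Summits in the gene body were found for 3 of the 10 genes (10.8% of all protein-coding genes had one), and these 3, osa, trx and kis, were the only members longer than 20 kb. Among genes of that length 57.5% had a summit in the gene or within 5 kb, against 53.1% of genes of 5 to 20 kb and 37.1% of shorter ones. The share with a summit in the gene body alone was not computed by gene length. Of the 28 summits 13 lay in introns away from promoters (46.4%, Wilson 95% interval 29.5 to 64.2), against 24.1% of all nuclear IDR summits. Of these 13, 11 were inside osa, trx and kis, and the rest lay in introns of the neighbours Hel89B and red. Another 14 of the 28 lay within 1000 bp of a protein-coding start site (50%, interval 32.6 to 67.4), against 64.1% of all. These intervals cover counting error only and treat peaks of the same gene as independent. The 28 peaks were chosen by gene, so the intervals cannot be used to set them against all summits. For 6 of the 28 no protein-coding start site but that of a non-coding RNA gene was within 1000 bp, 4 in osa and 2 in kis. A summit within 1000 bp of a member's own start site was present at 5 of the 10 genes, osa, brm, mor, kis and Bap60, against 20.4% of all protein-coding genes.

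Both replicates ranked most of these peaks highly, but the IDR list was derived from the replicate lists, so its peaks were already selected for agreement between them. Of the 28, 22 overlapped the 3827 regions of highest signal in each replicate list (78.6%, against 69.1% of all nuclear IDR peaks). Signals of the 28 had a median of 110.1 in the IDR list, against 104 for all 3803, with a range of 71.1 to 1056. The lowest values inside the list were 71.1 near Bap170, 71.6 in trx and 76.7 at the osa promoter, and the highest values just below it were 67.9 and 65.8 in osa and 65.3 near Bap170. Summits in replicates 1 and 3 were a median of 32 bp apart for the 28 peaks and 39 bp apart for all.

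The balance between replicates varied from peak to peak within genes. The log2 ratio of signal in replicate 1 to that in replicate 3 was expressed relative to its median over all nuclear IDR peaks, so that 0 is the usual ratio. In osa it was 0.44 at the strongest peak and 0.61 at its neighbour of signal 114. It was -0.78, -0.83 and -1.15 at the intronic peaks of signal 175, 149 and 121, which were relatively higher in replicate 3. In trx it was -0.90 at the strongest peak and 1.22 at the weakest. In kis it was 0.54, 0.10 and 0.96 at the peaks 349, 1599 and 2985 bp upstream of the internal start. Of the 28 peaks 11 lay on the replicate 1 side of the median (39.3%, against 49.5% of all). With 1 library per replicate, a difference between animals and one between libraries cannot be told apart.

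**Figure D4:**
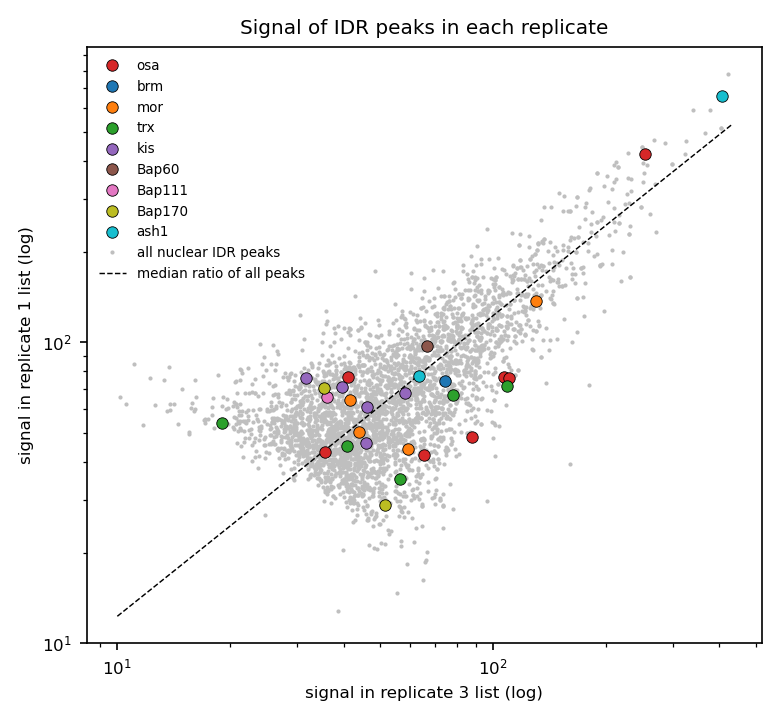
Signal in the replicate 1 list (vertical, log) against signal in the replicate 3 list (horizontal, log) for the 28 peaks of the 10 genes (coloured by gene) and all nuclear IDR peaks with a region in both lists (grey); the dashed line is the median ratio. The ash1-side peak and the strongest osa peak stand at the upper right in both replicates, while several osa and trx peaks lie below the line and 3 of the 5 kis peaks above it.

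The wider set of related genes was read in the same way, from 4 lists of 35 genes. Their counts stand beside the 41.4% of all protein-coding genes with an IDR summit in the window. Of 6 other Brahma complex subunit genes, 3 had an IDR summit in the window. These were Act5C, which encodes cytoplasmic actin (strongest signal 252), Bap55 (114, at the promoter of CG6550) and Brd7-9 (73.4). The PBAP subunit genes polybromo and e(y)3 had none, nor did d4. Of 11 genes for COMPASS histone methyltransferase complexes and partners of Trx, 4 had one. These were wds (181, 1126 bp from the start of egh), Rbbp5 (173, at the promoter of eRF1), the histone demethylase gene Utx (93.5, 153 bp from its own start) and Ptip (91.3, at the promoter of endos). No summit lay near ash2, trr, Set1, Dpy-30L1, Hcf, Mnn1 or Lpt.

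Other trithorax group genes, of median length 17298 bp against 2166 bp for all protein-coding genes, had summits in 7 of 10. The highest were beside Caf1-55 (604, 122 bp from the start of Art3), Trl, which encodes GAGA factor (373, 1465 bp from the start of CG42507), MRG15 (165, at the promoter of CG4338, with no overlapping region in replicate 1) and the Mediator gene skd (135, at the promoter of Polr3E). The genes kto, vtd and E(bx) had none. Among 8 other remodeller ATPase genes, 4 had a summit, namely Ino80 (305, 117 bp from the start of Aptx), Mi-2 (223, 6056 bp from the start of Su(Tpl)), Iswi (205, 23 bp from the start of muskelin) and Etl1 (188, at the promoter of yip2). Chd1, Chd3, dom and Marcal1 had none. The median of the strongest signals was 164 for the 9 genes with a summit, 114, 133, 135 and 214 for these lists in turn, and 127 over all 5777 protein-coding genes with a summit. In these lists 2 of 6, 1 of 11, 6 of 10 and 1 of 8 genes had a listed summit closest to their own start site. Of the 10 genes described above 4 did, and of all protein-coding genes 18.5%. A summit within 1000 bp of their own start site was present at 3 of 6, 2 of 11, 6 of 10 and 3 of 8. These include Bap55, Rbbp5, Caf1-55, Trl, skd, Ino80, Iswi and Etl1, whose strongest peak is placed above by a neighbour. By that measure 5 of the 10 genes had one, and 20.4% of all protein-coding genes.

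**Figure D5:**
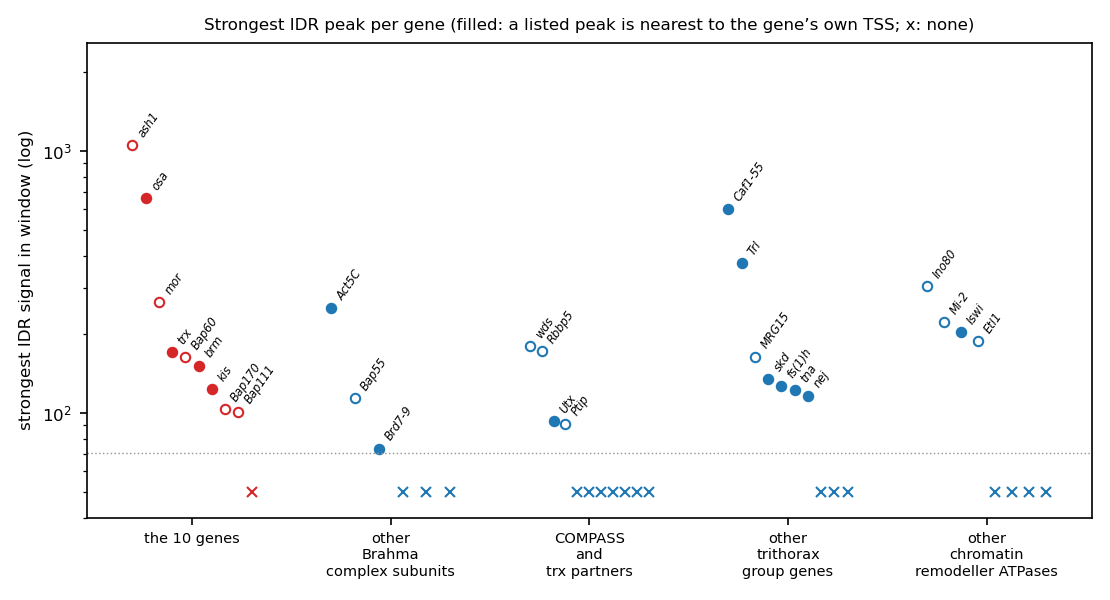
Strongest IDR signal in the window (log axis) of each of the 10 genes (red) and of the genes in 4 lists of related genes (blue). Filled points have a listed peak closest to their own start site, open points have none, and crosses, set at 1 nominal height below the dotted line (lowest nuclear IDR signal, 70.6) with no value of their own, are genes with no IDR summit. In the first column ash1 (1056) and osa (665) stand highest, and of these 2 only osa is filled.

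By number of summits, and then by strongest signal, the genes most like osa among 13 others with 7 IDR summits were 14-3-3zeta (461), CG2811 (456) and Tina-1 (456). The strongest peak in the window of 14-3-3zeta lies at the promoter of its neighbour Jra, the gene of the tagged protein itself. CG2811 and Tina-1 are neighbours that share their strongest peak, at the Tina-1 promoter.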

How the data were processed

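Jra-GFP was profiled by ChIP-seq in 2 replicates of whole larvae. Per the deposited README texts, each replicate list was derived from the replicate's own alignments with 1 further file, the pooled list from both sets of alignments, and the IDR list from those 3 lists. The sources used here give neither aligner nor peak caller, and no IDR threshold. The signal of each region and its summit offset, a number the peak caller writes in another column, were used as the authors deposited them. The dm3 versions of the lists were not used. No dm6 region ended beyond its chromosome in the RefSeq Release 6 sequence. Gene models were those of Ensembl release 115, and all 45 listed symbols matched.

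Summit positions were the deposited start plus offset, counted from 1. Mitochondrial peaks (24) were set aside. A replicate's signal for an IDR peak was the highest of an overlapping region (at least 1 bp), and replicate ranks are over the whole list. Motifs were searched within 50 bp of summits. Wilson 95% intervals cover counting error only and treat peaks of 1 gene as independent. Members and gene lists were chosen with earlier results of these data known. Named genes were all members, up to 4 genes of each related list by signal with all those lacking a summit, the 3 genes most like osa, and neighbours with the closest start site. No test was made, as there was 1 group and the rule used the same signals. Alternatives covered the window, the list, each replicate alone, the overlap and the motif width. Window counts and motif search were tested on simulated data. Analysis used Python 3.11.15 with pandas 2.3.3, numpy 2.4.6, scipy 1.17.1 and matplotlib 3.10.9.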

Additional observations from a re-analysis of the deposited data

How the results depend on the processing

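The count of genes with an IDR summit, 9 of 10, was 3 with the gene body alone, and the number of summits, 28, became 12. The share at promoters, 50%, was then 8.33%. Among the 1901 peaks of higher signal 17 summits were left. The median of the strongest signals, 164, was 171 with the gene body alone and 171 among those 1901 peaks, 158 with windows of 2 kb and of 10 kb, and 168 for peaks covered over at least 50% by a top region of each replicate. In single replicates, each on its own scale, it was 74.5 to 75.1. Within 100 bp of the summit, 7 peaks in place of 2 held letters of the motifs searched, 3 DRE (10.7%, against 5.78% of all peaks), 4 GAGA (14.3%, against 7.68%) and none AP-1 (against 5.89%). With a window of 10 kb all 10 genes, Snr1 included, had a summit, against 54.0% of all protein-coding genes. No paired analysis was possible because there was a single group. Depth is unknown, so a gene without a summit is one not listed at this depth, not one shown to be unbound.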

Other observations

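The median IDR signal was 103 for the 63 nuclear peaks with the word AGTCACT within 50 bp of the summit, 5 of them the member peaks described above, and 104 for the 3740 without it. Of those with it 54.0% lay within 1000 bp of a protein-coding start site, against 64.3% of those without. The windows of the 10 genes held further copies away from IDR peaks, such as 3 in the ash1 window, none of them in a pooled region, and 4 in that of osa, of which 1 was in an IDR peak. Of the 13 peaks closest to a member's own start site 3 held the word, as did 2 of the 15 closest to that of another gene. These values describe a pattern noticed in the same sequences and carry no test.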
